A study of Papio anubis with 60 samples.

Results

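Double-marked domains are wide stretches of H3K9me3 found in both pluripotent cell types of the olive baboon, Papio anubis, that also bore peaks of H3K27me3 in induced pluripotent stem cells (iPSC). They were chosen from the deposited peak lists. Peaks of H3K9me3 in embryonic stem cells (ESC) were joined within 3 kb on chromosomes 1 to 18 and 20, and those stretches that reached 10 kb were retained. Of these 4597 wide domains, 1411 had at least 50% of their length under iPSC H3K9me3 peaks and are called shared. The 664 double-marked domains are the shared ones in which iPSC H3K27me3 peaks covered at least 25% of the length. The other 747 shared wide domains served for comparison. All chromosomes and scaffolds together held 176675 ESC H3K9me3 domains of any width.

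The series mapped histone marks by chromatin immunoprecipitation with sequencing in ESC of lines B4 and B15 and in iPSC, which are reprogrammed somatic cells, of lines 160-2 and M14939#3. Both kinds were kept on feeder cells in PluriSTEM medium, and 50000 cells, digested with micrococcal nuclease, went into a library. Each cell type had 3 replicates of each of 2 lines for H3K9me3, H3K27me3, H3K4me3, H3K27ac and an input, or 60 libraries in all. The values here are 8 peak lists, 1 per cell type and mark, so there is no replicate of a list, no test between cell types could be made, and cell type and cell line cannot be told apart. Intervals given below are 95% intervals for counting error over domains only, Wilson intervals for shares and binomial intervals for medians, and neighbouring domains are not independent. The number of reads behind each list is unknown. No annotation of the lists' genome build was used, so the cell types were not checked against marker genes, and no domain is tied to a gene.

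H3K9me3 is the mark of constitutive heterochromatin and of silenced repeats, and is laid down by methyltransferases of the SUV39H and SETDB1 type and bound by HP1 proteins. H3K27me3 is laid down by Polycomb repressive complex PRC2 and in pluripotent cells lies mainly over developmental genes, often together with the promoter mark H3K4me3 in what are called bivalent domains. H3K27ac, the mark of active promoters and enhancers, sits on the same lysine as H3K27me3 and excludes it on the same histone tail. A list pools many cells, so peaks of 2 marks at one place do not show that both sit on the same nucleosome or in the same cell.

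The double-marked domains were mostly short, with a tail of very long ones. Their median width was 13.7 kb (95% interval 13.5 to 14.4), the quartiles were 11.3 and 22.3 kb, and the widest spanned 377 kb. Altogether they made up 16.9 Mb, or 0.664% of the 19 chromosomes. At least 20 kb was reached by 187 of them, at least 50 kb by 63 and at least 100 kb by 22. The other shared wide domains had almost the same median, 13.8 kb (13.3 to 14.1).

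The values that chose the domains are given as a description. ESC H3K9me3 peaks covered a median of 72.0% of a double-marked domain, iPSC H3K9me3 peaks 68.6% and iPSC H3K27me3 peaks 34.6%, with quartiles of 29.1% and 42.7% for the last. The 25% limit cut through a continuous distribution. The 3 domains just inside it had 25.02% to 25.09% and lay on chromosomes 3, 6 and 5, and the 3 just outside had 24.95% to 24.98% and lay on chromosomes 12, 11 and 9. All but 1 of the 747 other shared wide domains had some iPSC H3K27me3, with a median of 17.6%. Their median H3K9me3 coverage was also lower, 65.6% (64.4 to 66.3) in ESC and 57.5% (56.8 to 58.1) in iPSC. The intervals for double-marked domains were 70.8% to 73.2% in ESC and 66.9% to 69.6% in iPSC. The comparisons below were not matched for H3K9me3 coverage, and its part in them was not tested. At the 50% limit for iPSC H3K9me3 the nearest domains had 50.005% to 50.12% inside and 49.82% to 49.96% outside. At the limit of width they measured 10 to 10.013 kb inside and 9.981 to 9.997 kb outside. In 106 double-marked domains iPSC H3K27me3 covered at least 50% of the length, and in 9 at least 75%.

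ESC H3K27me3, which the rule did not use, was absent from most of these domains. A peak of it was found in 154 of 664, or 23.2% (20.1 to 26.6), against 15.9% of all wide ESC H3K9me3 domains. Among the other shared wide domains 50 of 747 had one, or 6.69% (5.11 to 8.72). The share was thus higher in double-marked domains than in both sets, and the interval did not meet that of the other shared domains, but no test of the difference was possible with 1 list per group. With no joining beyond overlapping peaks, which left 156 double-marked and 59 other shared domains, the shares were 6.41% and 1.69%. The median coverage was 0% in either set, and the pooled length under ESC H3K27me3 was 1.86% in double-marked domains, close to the 2.03% of the 19 chromosomes as a whole. For iPSC H3K27me3, which the rule fixed, the pooled share was 38.8% against 3.36% of the 19 chromosomes. The iPSC list is the longer one, with 125610 H3K27me3 peaks on these chromosomes against 48730 in ESC. Coverage was higher in iPSC in 660 domains and higher in ESC in 3, a split that the 25% limit on the iPSC side largely fixes.

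**Figure D1:**
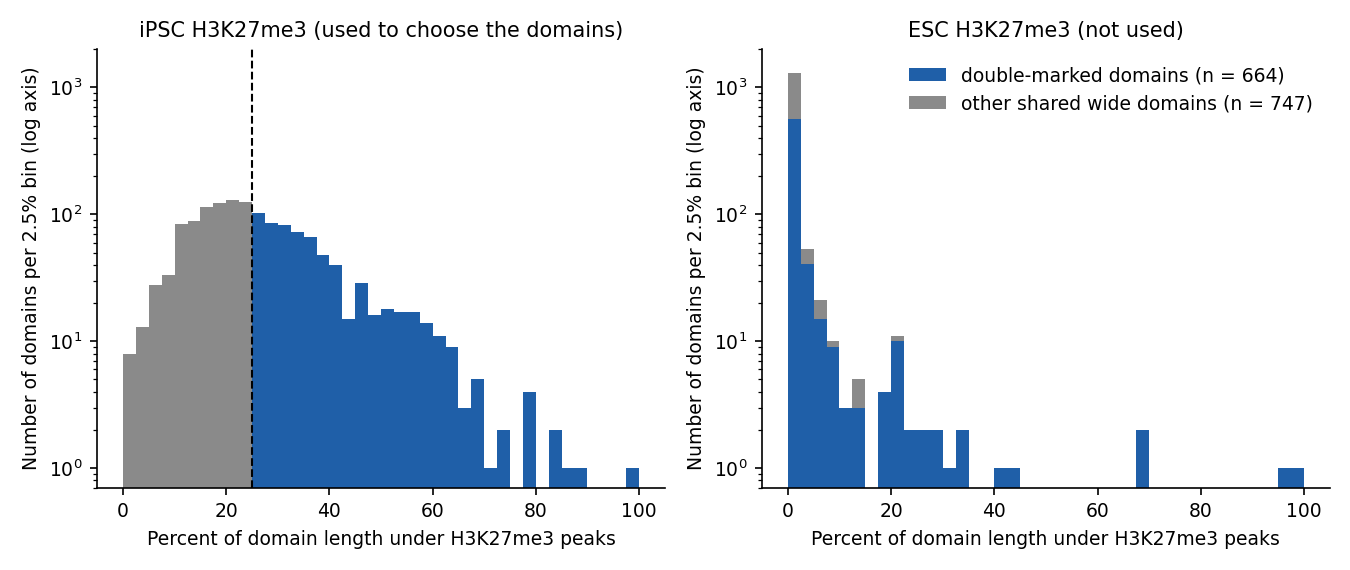
Number of shared wide H3K9me3 domains, on a log axis, by the percent of their length under H3K27me3 peaks of iPSC (left) and of ESC (right), in bins of 2.5%; blue bars are the 664 double-marked domains, grey bars stacked on them the 747 others, and the dashed line is the 25% limit. The iPSC values run without a break across the limit, while in ESC most domains lie in the lowest bin and 13 double-marked domains reach 25% or more.

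ESC H3K27me3 in these domains was unevenly spread. One domain, chr12:189586-561953, held 76.5 kb of it, which is 24.4% of all ESC H3K27me3 in the 664. Without that domain the pooled share was 1.44%. At least 25% of the length was covered in 13 domains, or 1.96% (1.15 to 3.32), near the background of 1.57% over all wide domains. No other shared wide domain reached that level (0 of 747, with a Wilson upper limit of 0.512%, or 0.402% if a count of 0 is taken to allow 3). The 154 domains with an ESC peak were wider, with a median of 17.4 kb (14.8 to 19.6) against 13.5 kb (13.0 to 14.0) for the 510 without. The difference from the other shared domains had the same direction in each class of width. With widths of 10 to 15 kb, 17.4% of double-marked and 4.95% of other shared domains had an ESC H3K27me3 peak. From 15 to 20 kb the shares were 24.5% and 6.57%, from 20 to 30 kb 34.1% and 19.2%, and above 30 kb 34.3% and 4.55%. The peaks themselves were of ordinary strength. The 289 ESC H3K27me3 peaks in double-marked domains had a median fold enrichment of 2.98, the authors' value, against 3.02 for those of the same list outside wide H3K9me3 domains.

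The 5 domains with the highest ESC H3K27me3 coverage all bore peaks of H3K9me3, H3K27me3 and H3K4me3 in both cell types. At chr1:21628943-21639607 (10.7 kb) H3K27me3 covered 100% of the length in both cell types, H3K4me3 covered 69.6% in ESC and 72.0% in iPSC, and H3K9me3 covered 69.4% and 66.4%. No H3K27ac peak was found there in either list. At chr14:35604574-35614590 (10.02 kb) H3K27me3 covered 95.5% in ESC and 78.2% in iPSC, with H3K4me3 over 43.3% and 59.4%. At chr17:74254727-74268035 (13.3 kb) the H3K27me3 values were 69.0% and 62.7%, and those of H3K4me3 29.0% and 43.7%. These 3 had little difference between the cell types in H3K9me3, which lay at 54.7% to 78.9% in ESC and 57.1% to 78.3% in iPSC. The next, chr4:137868499-137879538 (11.0 kb), had H3K27me3 over 68.7% and 55.4%, H3K4me3 over 48.3% and 46.5%, and small H3K27ac peaks in both lists (2.32% and 1.33%). The last, chr6:4034650-4044794 (10.1 kb), differed from these. Its H3K9me3 was 40.6% in ESC and 84.9% in iPSC and its H3K4me3 26.0% and 7.55%, with H3K27me3 over 44.9% and 51.3%.

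Within the double-marked domains, iPSC H3K27me3 lay almost wholly inside the iPSC H3K9me3 peaks and hardly in the gaps between them. Of the 6.55 Mb of iPSC H3K27me3 in the 664 domains, 96.5% fell in iPSC H3K9me3 peaks, which made up 72.2% of the length. H3K27me3 covered 51.8% of the bases under H3K9me3 peaks and 4.94% of the bases between them, a ratio of 10.5. It was denser in the peaks in 659 of the 663 domains that had both peaks and gaps. This arrangement was shared with the comparison domains, where 96.7% of iPSC H3K27me3 fell in H3K9me3 peaks and the 2 coverages were 25.3% and 1.47%, a ratio of 17.2. Over the 19 chromosomes 64.1% did so, with 31.7% and 1.29%, a ratio of 24.5. The ratio in the double-marked domains was thus the lowest of the 3. The rule fixed how much of each mark a domain held and not where in it, but a domain that is mostly H3K9me3 leaves little room outside the peaks. ESC H3K9me3 peaks, from which the domains were built, made up 73.1% of the length and held 93.2% of the iPSC H3K27me3. They held 97.5% of it in the other shared domains and 59.5% over the 19 chromosomes. In ESC the arrangement was weaker: ESC H3K27me3 covered 1.97% of the bases in ESC H3K9me3 peaks and 1.54% of those between, a ratio of 1.28. It was denser in the peaks in 125 of 153 domains. The ratio was 1.21 over the 19 chromosomes and 3.10 in the other shared domains, where 43 of 50 had it denser in the peaks.

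The H3K27me3 peaks of iPSC are described here from the list that chose the domains, so their number, width and strength support nothing. A domain held a median of 6 such peaks, with a range of 1 to 152, and a median of 3.998 per 10 kb. The median peak was 621 bp wide, against 430 bp outside wide H3K9me3 domains and 386 bp for H3K27me3 peaks that touched no iPSC H3K9me3. The median fold enrichment was 2.79 in double-marked domains, 2.78 in the other shared wide domains and 2.63 for peaks off H3K9me3. At least 2 in −log10 q was reached by 70.6% of the peaks in double-marked domains, 57.9% of those in the other shared domains and 46.5% of those off H3K9me3. The domains held 6696 peaks, or 5.33% of the list on these chromosomes, a share that the 25% limit raises. Joined within 3 kb, the widest iPSC H3K27me3 domain in each had a median width of 10.3 kb, and the ESC H3K27me3 domains, where present, one of 1.04 kb.

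**Figure D2:**
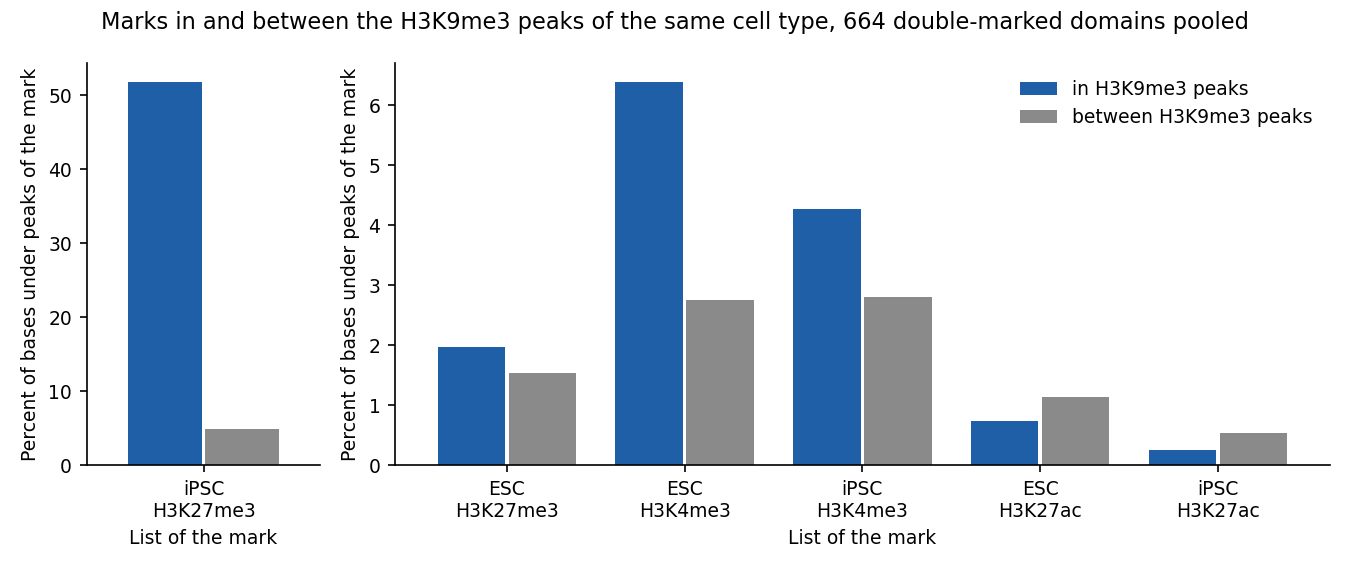
Percent of bases under peaks of each mark, inside the H3K9me3 peaks of the same cell type (blue) and between them (grey), pooled over the 664 double-marked domains; the left panel has its own axis. For iPSC H3K27me3 the bars stand at 51.8% and 4.94%, H3K4me3 is denser in the peaks in both cell types, and H3K27ac, pooled, is denser between them (1.13% against 0.733% in ESC).

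H3K4me3, the promoter mark, was present in most double-marked domains, and its median coverage was higher in ESC than in iPSC. That order depended on the joining: with overlapping peaks alone joined, the medians of the 156 domains were 0% in ESC and 1.06% in iPSC. A peak was found in 554 domains in ESC, or 83.4% (80.4 to 86.1), against 74.3% of all wide domains and 70.0% (66.6 to 73.2) of the other shared ones. In iPSC there were 497, or 74.8% (71.4 to 78.0), against 64.3% and 62.2% (58.7 to 65.7). In 464 domains both lists had one, in 90 only the ESC list, in 33 only the iPSC list and in 77 neither. Median coverage was 4.06% (3.71 to 4.84) in ESC and 2.36% (1.96 to 2.78) in iPSC. The lowest values were 0% in both and the highest 83.4% and 72.0%, with quartiles of 1.25% and 9.25% in ESC and of 0% and 6.18% in iPSC. The ranges overlap widely, and the domains with most H3K4me3 in one list had much of it in the other (Spearman's rho 0.78 over 664 domains, which share lists and chromosomes).

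Taken domain by domain, H3K4me3 coverage was higher in ESC in 430 of 664, or 64.8% (61.0 to 68.3), and higher in iPSC in 156, or 23.5% (20.4 to 26.9). Over all wide domains the shares were 52.9% and 28%, and over the other shared wide domains 49.0% (45.4 to 52.6) and 30.5% (27.3 to 33.9). The ESC median was the higher on each of the 19 chromosomes. Both H3K4me3 lists were of like length on these chromosomes, with 296768 peaks (5.10% of the length) in ESC and 300149 (5.35%) in iPSC. Pooled over the double-marked domains the mark covered 5.41% in ESC, near the level of the whole chromosomes, and 3.86% in iPSC, below it. In the other shared domains it covered 2.64% and 2.16%. Of the ESC H3K4me3 bases in double-marked domains, 47.3% also lay under iPSC H3K4me3 peaks. That part was 46.3% in the other shared domains and 75.1% over the 19 chromosomes.

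Most of the H3K4me3 in these domains lay under H3K9me3 peaks of the same cell type. Those peaks made up 73.1% of the length in ESC and 72.2% in iPSC, so a large share there follows in part from length alone. In ESC 86.3% of the H3K4me3 bases fell in H3K9me3 peaks, with coverage of 6.38% in the peaks and 2.75% in the gaps. In iPSC 79.9% did so, with 4.27% and 2.80%. The ratio of these coverages was 2.32 in ESC and 1.52 in iPSC, below the 2.91 and 1.92 of the other shared domains. Over the whole chromosomes ESC H3K4me3 covered 6.72% of the bases in H3K9me3 peaks and 4.96% of those outside, and iPSC H3K4me3 5.25% and 5.35%. Of the iPSC H3K4me3 in double-marked domains, 72.0% lay under iPSC H3K27me3 peaks, and its coverage was 7.17% there and 1.76% elsewhere in the domains. The rule raised that share, since it demanded iPSC H3K27me3, which covered 38.8% of the pooled length. The ratio of these coverages was 4.07, close to the 3.84 of the other shared domains (5.65% and 1.47%). Over the 19 chromosomes the ratio was higher, 5.19 (24.3% and 4.69%). The H3K4me3 peaks in double-marked domains were weaker than most of their lists. Their median fold enrichment was 3.11 in ESC and 3.09 in iPSC, against 3.53 and 3.60 for peaks outside wide H3K9me3 domains.

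Wider H3K4me3 domains, built from peaks of either cell type with a −log10 q of at least 5 joined within 1 kb and at least 2 kb wide, overlapped 136 double-marked domains. That is 20.5% (17.6 to 23.7), against 13% of all wide domains and 7.36% (5.70 to 9.46) of the other shared ones. In ESC, 44 double-marked domains met an H3K4me3 domain that was bivalent, which means that it bore peaks of both H3K4me3 and H3K27me3 past those limits (at least 2 in −log10 q for H3K27me3). This was 6.63% (4.97 to 8.78), against a background of 3.57%, and 2 of 747 other shared domains did so. In iPSC 116 double-marked domains met a bivalent domain (17.5%, background 8.66%), a count to which the rule contributed since it demanded iPSC H3K27me3. Domains bivalent in both cell types, or bivalent ones of each, were met by 42 double-marked domains (6.33%, background 3.09%). All these counts rest on the same H3K4me3 domains, built from both lists.

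In 4 domains H3K4me3 lay over at least 50% of the length in ESC, and their ESC H3K27me3 ranged from 0% to 100%. At chr4:53250716-53291969 (41.3 kb), the highest in ESC, H3K4me3 covered 83.4% in ESC and 56.3% in iPSC and H3K9me3 95.5% and 94.0%. H3K27me3 covered 89.8% there in iPSC, and no ESC peak of it was found. At chr5:1405069-1424365 (19.3 kb) the pattern was alike, with H3K4me3 over 54.5% and 28.7%, H3K9me3 over 93.6% and 88.8%, and H3K27me3 over 84.5% in iPSC and none in ESC. At chr9:96537570-96548471 (10.9 kb) H3K4me3 covered 50.3% and 59.0%, H3K27me3 21.2% and 62.6%, and H3K27ac 9.30% and 7.53%. The other is the domain of chromosome 1 fully covered by H3K27me3 in both lists. The domains on chromosomes 5 and 9 were singled out after their values were seen.

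H3K27ac was scarce in the double-marked domains, and peaks of it were found in more of them in ESC than in iPSC. An ESC peak lay in 248 domains, or 37.3% (33.8 to 41.1), against 46.8% of all wide domains, and an iPSC peak in 129, or 19.4% (16.6 to 22.6), against 29.2%. The other shared domains had 28.9% (25.8 to 32.3) and 18.7% (16.1 to 21.7), so that for iPSC the intervals of both sets overlapped. In 116 domains both lists had a peak, in 132 only ESC, in 13 only iPSC and in 403 neither. Pooled coverage in ESC was 0.841%, against 3.92% of the 19 chromosomes. In iPSC it was 0.334%, against 2.09%. With overlapping peaks alone joined, the shares with a peak were 6.41% in ESC and 3.85% in iPSC. The ESC list is the longer, with 367967 peaks on these chromosomes against 209925. Coverage was higher in ESC in 222 domains (33.4%, background 41.1%) and higher in iPSC in 38 (5.72%, background 9.4%). Neither H3K4me3 nor H3K27ac was found in either cell type in 69 domains, or 10.4% (8.29 to 12.9), against 14.2% of all wide domains and 18.3% (15.7 to 21.3) of the other shared ones.

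Pooled over the domains, H3K27ac was denser between the H3K9me3 peaks than in them, although most of its bases lay in them. ESC H3K27ac covered 0.733% of the bases in ESC H3K9me3 peaks and 1.13% of those between, and 63.8% of it fell in the peaks. For iPSC H3K27ac the values were 0.252%, 0.545% and 54.6%. The order was the same over the 19 chromosomes, with 3.02% in the peaks and 4.01% outside in ESC, and 1.17% and 2.16% in iPSC. In the other shared domains the coverages were closer, 0.609% and 0.626% in ESC and 0.320% and 0.382% in iPSC. Taken singly, 162 of the 248 domains with ESC H3K27ac, and 68 of the 129 with iPSC H3K27ac, had the mark denser in the H3K9me3 peaks. These are 65.3% and 52.7% of them, while H3K9me3 peaks made up 73.1% of the pooled length in ESC and 72.2% in iPSC. A domain with few H3K27ac peaks would often have them in H3K9me3 peaks wherever they lay. The counts of single domains therefore do not go against the pooled order. Among the other shared domains 161 of 216 and 84 of 140 had it denser in the peaks. The highest ESC coverage, 19.1%, was at chr3:179867166-179877997 (10.8 kb), where no iPSC H3K27ac or H3K4me3 peak was found and H3K9me3 covered 49.2% of the length in ESC and 87.9% in iPSC. The highest iPSC coverage, 13.3%, was at chr1:132093902-132105311 (11.4 kb), with 16.2% in ESC. That domain bore all 4 marks in both lists, with H3K4me3 over 47.5% and 27.9%, H3K27me3 over 20.7% and 63.8%, and H3K9me3 over 89.9% and 80.8%.

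**Figure D3:**
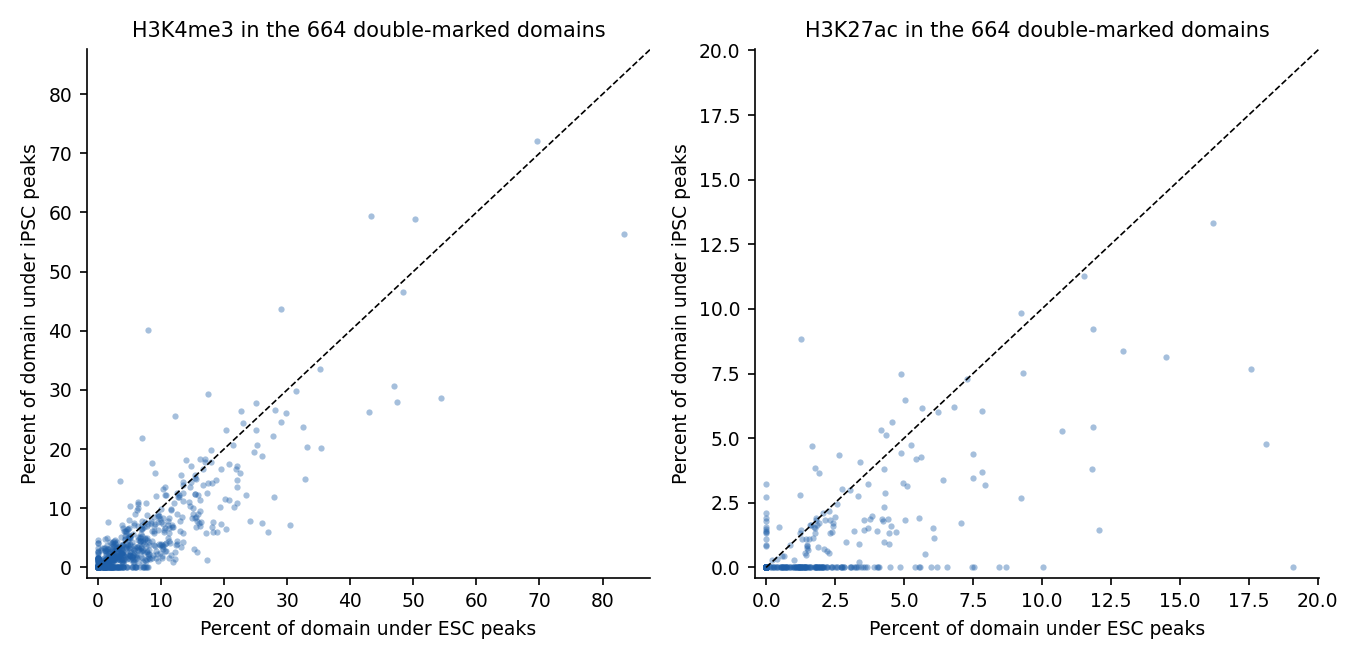
Percent of each of the 664 double-marked domains under H3K4me3 peaks (left) and H3K27ac peaks (right), in ESC (x axis) and iPSC (y axis), 1 point per domain, with the line of equal coverage dashed. More points lie below the line than above it, 430 against 156 for H3K4me3 and 222 against 38 for H3K27ac.

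Along the domains, iPSC H3K27me3 was higher inside than outside, as the rule requires, and inside it was higher in the middle than at the edges. Averaged over domains, it covered 40.2% of the central 20% of the width, 32.5% of the outer 10% on each side, 6.71% of the first 2.5 kb outside and 11.6% at 40 to 50 kb from the border. The iPSC H3K9me3 peaks, in which most of it lay, had the same shape inside, with 72.8% in the centre and 62.2% in the outer parts. The shape inside is therefore not particular to H3K27me3. The drop at the border is no finding, since the 25% limit sets the inner level and the joining leaves no ESC H3K9me3 peak in the first 3 kb outside. The other shared domains had the same shape, with 18.9% in the centre, 14.9% in the outer parts and 0.887% just outside. ESC H3K27me3 was nearly level across the border, with 1.86% in the centre, 2.59% in the outer parts, 2.24% just outside and 2.41% at 40 to 50 kb. ESC H3K4me3 was 6.81% in the centre and 5.65% just outside, and iPSC H3K4me3 4.82% and 5.41%. ESC H3K27ac was 3.30% just outside, 2.05% in the outer parts and 0.878% in the centre, and iPSC H3K27ac 1.62%, 0.913% and 0.311%. The surroundings also held more iPSC H3K9me3 than those of the other shared domains, 22.8% against 17.2% at 40 to 50 kb, and more iPSC H3K27me3, 11.6% against 5.82%. At the same distance the lists not used by the rule were also higher around double-marked domains. ESC H3K27me3 covered 2.41% against 1.08%, ESC H3K4me3 5.48% against 3.99% and iPSC H3K4me3 5.165% against 4.08%. H3K27ac covered 3.64% against 2.70% in ESC and 1.64% against 1.48% in iPSC. ESC H3K9me3 was alike, 18.1% against 18.2%. Higher values than in the comparison set were thus not confined to the domains. These flanks can hold other double-marked domains, chosen by the same marks, since 100 of the 664 had one within 10 kb. Their part in these differences was not tested.

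**Figure D4:**
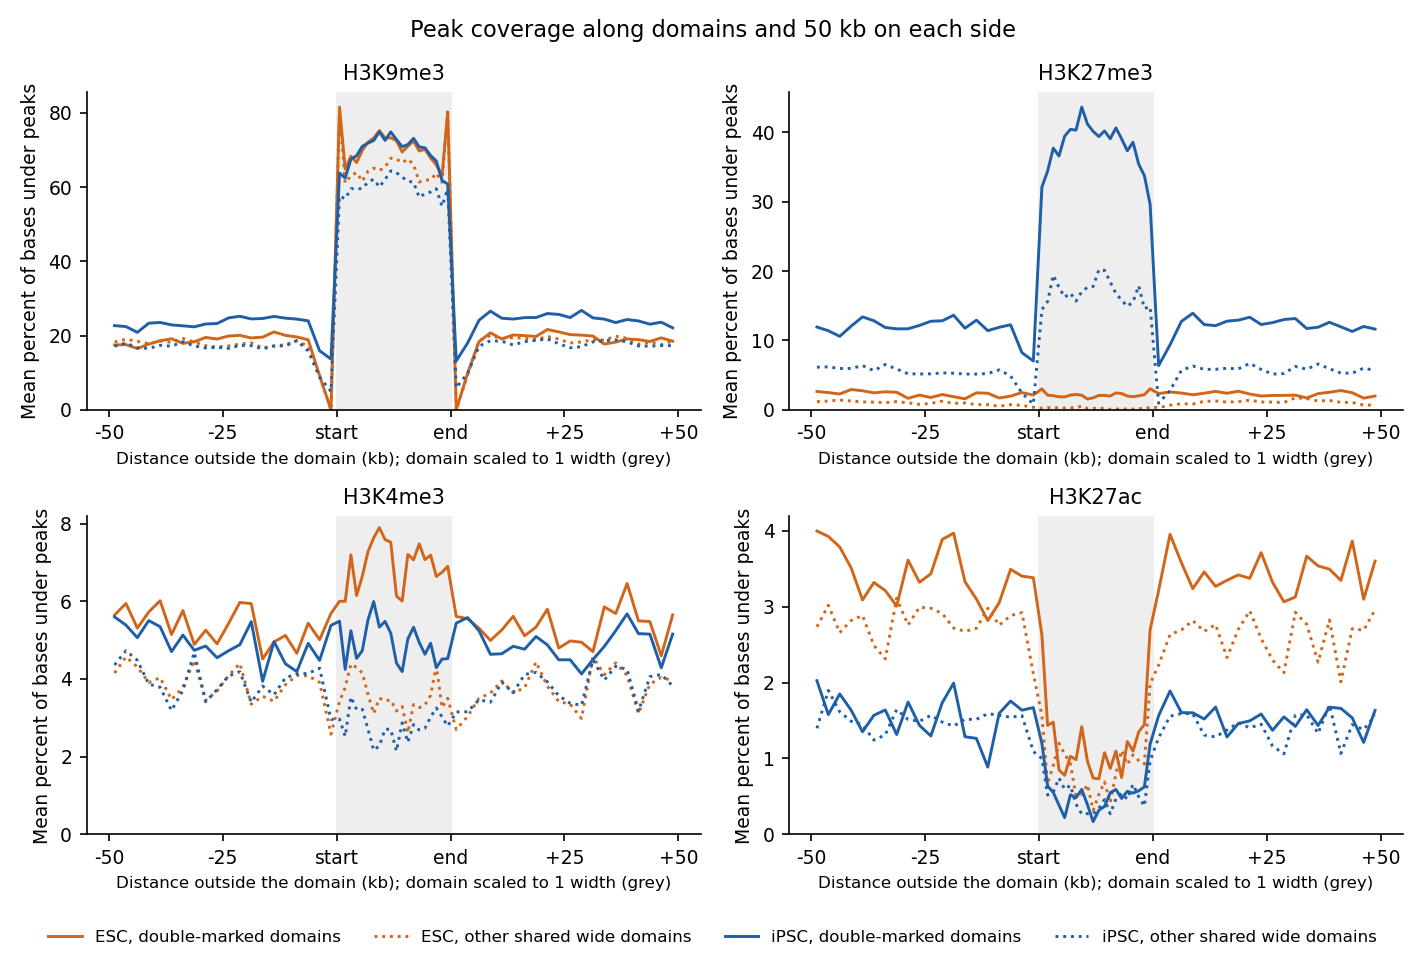
Mean percent of bases under peaks of each mark along the domains, scaled to 1 width (grey), and in steps of 2.5 kb up to 50 kb on each side, for ESC (orange) and iPSC (blue); solid lines are the 664 double-marked domains and dotted lines the 747 other shared wide domains. H3K27me3 of iPSC stands at 40.2% in the centre of double-marked domains and ESC H3K27me3 at 1.86%, H3K4me3 is higher in ESC inside the domains, and H3K27ac drops inside them in both cell types.

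The double-marked domains with the most iPSC H3K27me3 also had an ESC peak of it most often. When the 664 were ranked into 5 equal groups by iPSC H3K27me3 coverage, 15.0% of the lowest group (up to 28.1% covered) and 40.6% of the highest (46.3% to 100%) held an ESC H3K27me3 peak, with 11.3%, 18.2% and 30.8% in the groups between. The highest group held 33 of the 59 domains in the megabase bins described further on, and the part of these in its values was not tested. An ESC H3K27ac peak was found in 32.3% of the lowest group and 48.9% of the highest, and an iPSC H3K27ac peak in 25.6% and 18.8%. Median ESC H3K4me3 coverage was 3.73% and 5.51%, and median iPSC H3K9me3 coverage 61.2% and 80.8%. Across all 664, iPSC H3K27me3 coverage had a rho of 0.42 with iPSC H3K9me3 coverage, 0.26 with ESC H3K27me3, 0.14 with ESC H3K4me3 and 0.05 with ESC H3K9me3 and with width alike. These correlations describe domains that share lists and, in part, neighbourhoods.

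The domains occurred on all 19 chromosomes, with the highest density on chromosome 10, which held the largest run. There were 47 on it, 51.5 per 100 Mb, against 16.5 to 34.2 per 100 Mb on the others. On chromosome 10, 47 of the 57 shared wide domains (82.5%) were double-marked, against 38.5% to 64% elsewhere. An ESC H3K27me3 peak lay in 53.2% of those on chromosome 10, and 13.5% to 37.5% of those elsewhere. Without chromosome 10 the share of all double-marked domains with such a peak was 20.9%. Much of the density and of the share with an ESC peak on chromosome 10 came from 1 run of 22 domains, described next. Without it, an alternative chosen after the values were seen, chromosome 10 had 27.4 domains per 100 Mb, within the range of the others, and 36% of its remaining 25 had an ESC H3K27me3 peak, also within the range. Of its shared wide domains outside the run, 25 of 35 (71.4%) were double-marked, still above the 38.5% to 64% of the other chromosomes. The largest number, 68, lay on chromosome 1, and the smallest, 12, on chromosome 18.

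**Figure D5:**
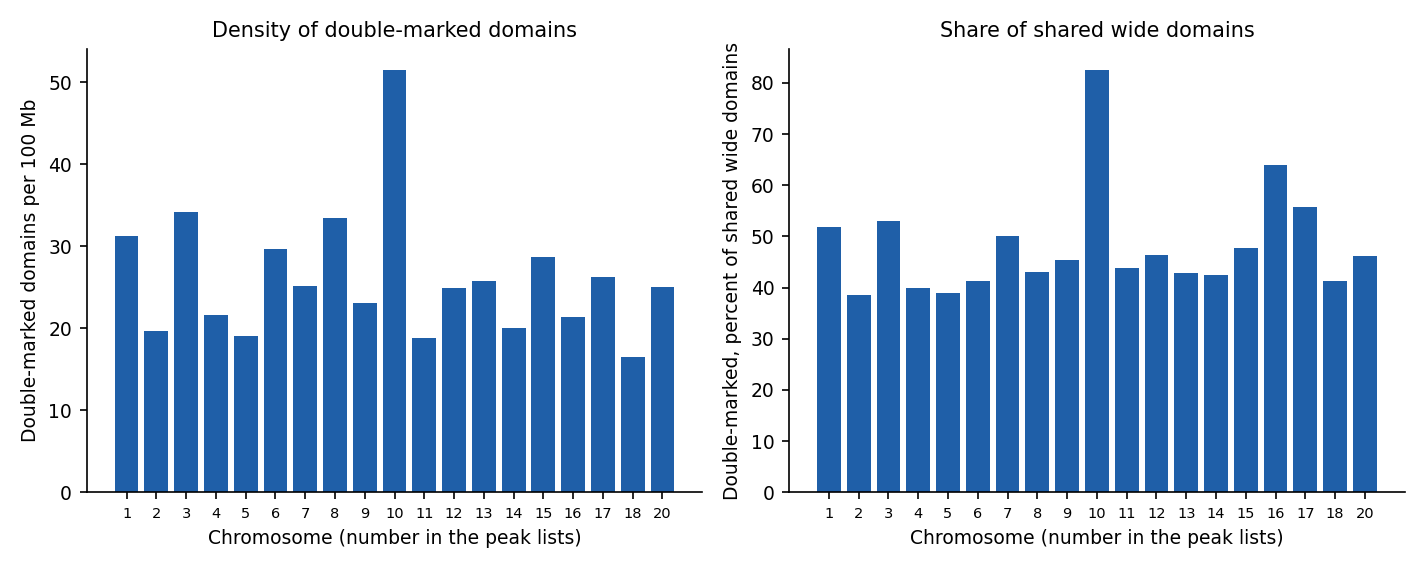
Double-marked domains per 100 Mb of each chromosome (left) and as percent of the shared wide domains of that chromosome (right), with chromosome lengths taken as the furthest peak end. Chromosome 10 stands highest in both panels, at 51.5 per 100 Mb and 82.5%.

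Many double-marked domains had another close by. Within 1 Mb of another lay 377, or 56.8%, within 100 kb 210 and within 10 kb 100, and the median distance to the nearest was 755 kb. Other shared wide domains had one of their own kind within 1 Mb in 59.2%, so closeness at 1 Mb was not particular to the double-marked ones. The shorter distances and the runs were not counted for that set. Grouping within 1 Mb gave 287 lone domains and 15 runs of at least 5 that held 136 domains. The largest run had 22 at chr10:87806827-90302364, where all 22 shared wide domains were double-marked. Over its 2.496 Mb, H3K9me3 covered 26.8% in ESC and 73.7% in iPSC, H3K27me3 2.86% and 52.2%, H3K4me3 6.52% and 2.36%, and H3K27ac 5.29% and 0.299%. An ESC H3K27me3 peak lay in 16 of its 22 domains.

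The next run had 21 of 24 shared wide domains, at chr3:179524224-181338316. It reached the furthest peak end of that chromosome, with H3K9me3 over 29.7% in ESC and 54.6% in iPSC and H3K27me3 over 2.44% and 35.4%. H3K27ac covered 6.26% and 1.07% of it. The third had 15 of 18 at chr6:1452693-4556375, with H3K9me3 over 16.4% and 58.5%, H3K27me3 over 5.72% and 31.3%, and H3K4me3 over 5.995% and 3.60%. In these 3 stretches iPSC H3K9me3 and H3K27me3 thus extended well beyond the domains, while ESC H3K9me3 was split into separate pieces. For the 664 as a whole, the widest iPSC H3K9me3 domain that overlapped each, joined within 3 kb, had a median width of 15.6 kb and reached 2044 kb. Such a domain was shared with another double-marked domain by 85 of them.

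A small part of the double-marked domains lay in megabase stretches with much more H3K9me3 in iPSC. In 27 of 2533 bins of 1 Mb, iPSC H3K9me3 coverage was at least 20 points above that of ESC, and 59 of 664 domains had their midpoint there. This was 8.89% (6.95 to 11.3), against 1.85% of all wide domains and 2.14% (1.32 to 3.45) of the other shared ones. The rule contributed to this share, since it demanded iPSC H3K9me3, by which the bins were chosen, and iPSC H3K27me3, which lay mostly in H3K9me3 peaks. Of the 58 domains in the 3 largest runs, 33 were in such bins. As the choice of bins entails, the 59 had less H3K9me3 in ESC than in iPSC, with medians of 49.8% and 84.3%, and the other 605 had medians of 73.3% and 67.3%. Median H3K4me3 coverage was 2.40% in ESC and 0.717% in iPSC in the 59, and 4.34% and 2.63% in the 605. ESC H3K27ac was found in 55.9% and iPSC H3K27ac in 5.08% of the 59, against 35.5% and 20.8% of the 605. The lead of ESC in H3K4me3 and H3K27ac was therefore present in both subsets.

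Ends of chromosomes held more of the double-marked domains than of the others. Within 2 Mb of a chromosome end, taken as the first base or the furthest peak end, lay 101 of 664, or 15.2% (12.7 to 18.1), against 7.77% of all wide domains and 5.49% (4.07 to 7.36) of the other shared ones. Among the 101 were all 21 domains of a run at the end of chromosome 3 and all 8 of a run at the start of chromosome 12. The interval, which treats domains as independent, is therefore too narrow. These 101 were wider, with a median of 23.3 kb against 13.4 kb for the rest. An ESC H3K27me3 peak was found in 39.6% of them and in 20.2% of the rest, and an ESC H3K27ac peak in 51.5% and 34.8%. The part of their greater width in these shares was not tested. Median iPSC H3K27me3 coverage was 42.3% and 33.6%.

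The 5 widest domains were long blocks of H3K9me3 in both cell types with little or no H3K27ac, and in all but the one on chromosome 12 with little H3K4me3. The widest, chr1:216897647-217274305 (377 kb), had H3K9me3 over 75.3% in ESC and 76.1% in iPSC, iPSC H3K27me3 over 28.7%, ESC H3K27me3 over 0.0674% and no H3K27ac. The second, chr12:189586-561953 (372 kb), was unlike the other widest ones in its ESC H3K27me3 (20.5%) and in its H3K4me3 (11.8% in ESC and 7.17% in iPSC), with iPSC H3K27me3 over 57.9%. The third, chr7:8246-376682 (368 kb), had iPSC H3K27me3 over 28.6%, ESC H3K27me3 over 1.301% and H3K4me3 over 2.85% and 1.86%. These 3 lay within 2 Mb of a chromosome end. At chr8:42796169-43098270 (302 kb) H3K9me3 covered 88.1% and 87.8% and iPSC H3K27me3 25.3%. At chr20:28821509-29106054 (285 kb) the values were 78.1%, 74.7% and 29.2%. In these last domains no ESC H3K27me3 and no H3K27ac peak was found in either list, and H3K4me3 covered at most 2.26%.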

How the data were processed

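Libraries of ESC and iPSC were immunoprecipitated for 4 histone marks, and 8 deposited peak lists, 1 per cell type and mark, were used. The tools named in the submitters' processing notes are MACS2, deepTools, Picard and SAMtools 1.10. Which aligner, build and thresholds were used, and how libraries and inputs were pooled, the sources used here do not say. For every peak the authors deposited a fold enrichment (a ratio) and a −log10 q. Both are the authors' values and served only to describe or filter peaks within a list. The domains and the measures were chosen with earlier results of these data known. Positions are those of the lists, written from base 1. The gene table at hand (Panubis1.0) was not joined, since on 11 of 19 chromosomes the last gene and the last peak ended more than 5 Mb apart, and no gene or sequence is given. Named domains are the 5 widest, the 5 with most ESC H3K27me3, those with most H3K4me3 and H3K27ac, the 3 largest runs and those next to each limit.

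Coverage is the percent of a domain under merged peaks, and a peak counts as present from 1 bp of overlap. Python 3.11.15, pandas 2.3.3 and statsmodels 0.14.6 were used, and the joining and coverage code was checked on simulated peaks. No read counts were used, so depth is unknown and no p-value was computed. The ranking by iPSC H3K27me3 and the overlaps with H3K4me3 domains were added after values were seen.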

Additional observations from a re-analysis of the deposited data

How the results depend on the processing

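No paired analysis was possible because each cell type and mark has 1 list with no replicate. For the same reason no replicate could be left out. These results were recomputed: the number of double-marked domains, the shares with a peak of ESC H3K27me3, ESC H3K27ac and iPSC H3K27ac, and the median coverages of ESC H3K27me3, ESC H3K4me3 and iPSC H3K4me3. Of 206 recomputed values, 171 stayed within the interval of the reported value, or within 1.5 times the number. Most of the 206 only left out a chromosome, the largest runs, the megabase bins or the chromosome ends. Those settings keep most of the domains, and none of their values moved. All 35 that moved came from other joinings, firmer peaks, other limits or a larger required overlap. The 171 thus do not show stability to such changes. Median ESC H3K27me3 coverage was 0% throughout. The cause of the changes was not tested.

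With overlapping peaks alone joined, there were 156 domains, with shares of 6.41%, 6.41% and 3.85% and H3K4me3 medians of 0% (ESC) and 1.06% (iPSC), so that ESC was no longer higher in H3K4me3. Joining within 1 kb gave shares of 11.9%, 17.2% and 7.74% and medians of 1.95% and 1.54%. Joining within 5 kb gave 45.9% for ESC H3K27ac and an iPSC H3K4me3 median of 1.85%. Peaks past the firmer limits gave 387 domains, shares of 19.6%, 28.2% and 14.5% and medians of 3.52% and 1.72%. An iPSC H3K27me3 limit of 50% gave 106 domains, ESC shares of 45.3% and 50% and an ESC H3K4me3 median of 5.12%. An iPSC H3K9me3 limit of 75% gave 205 domains, H3K27ac shares of 33.2% and 12.7% and medians of 2.26% and 1.42%. Domains of at least 20 kb numbered 187, with an ESC H3K27me3 share of 34.2% and medians of 2.62% and 1.75%. Where a peak had to cover 10% of the domain, the shares were 5.27%, 1.96% and 0.301%.

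Leaving out each chromosome gave 596 to 652 domains, shares of 20.9% to 24.2%, 35.7% to 38.8% and 18.6% to 20.1%, and medians of 3.999% to 4.35% and 2.25% to 2.41%. Leaving out the 3 largest runs, the megabase bins or the chromosome ends, alternatives added after the data were examined, kept each result within its interval. Under other joinings, firmer peaks, other limits, and without the bins or ends, the share with ESC H3K27me3 was higher than in the other shared wide domains. For iPSC H3K27ac the order of the 2 sets turned, to 7.74% against 10.4% with joining within 1 kb, 18.2% against 23.2% within 5 kb and 18.9% against 19.1% with the 50% limit, and it was 19.2% against 19.3% without the ends.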
